A study of Mus musculus with 70 samples.

Results

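ST2+ CD44hi Tregs sorted from the blood were compared with ST2+ CD44hi Tregs sorted from the back skin of the same mice. These populations make up 9 of the 67 libraries analysed here, 4 from blood and 5 from skin, and they lie at either end of the tissue order within ST2+ Tregs. The libraries were chosen by tissue and population as labelled and by a column total over 1000000 counts, and not by the value of a named gene. The tissue order came from the study's comparison of overall gene expression in these libraries. The choice of this pair, and with it the number of genes that differ, is therefore not independent of expression. The blood library of mouse 1 held 488666 counts and was left out, which leaves blood from mice 2 to 5 and skin from mice 1 to 5.

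RNA was sequenced from Tregs of 6 tissues of 5 male mice of the Foxp3YFP-cre strain, B6 animals with the allele Foxp3tm4(YFP/icre)Ayr, in which a fusion of YFP and Cre is made from the Foxp3 locus. The animals were untreated and were 16.6 to 18.6 weeks old, and each mouse gave every tissue. The sorted cells were live CD45.2+ CD4+ YFP+ CD44hi lymphocytes that lacked CD8, CD11b and a B cell marker and bound an antibody to ST2. ST2- CD44hi Tregs of blood and skin, with 5 libraries each, and ST2+ Tregs of spleen, lungs, visceral adipose tissue (VAT) and colon were used only to place the differences. YFP, CD44 and ST2 were gated in both populations, so their transcripts are not independent of the sort. The skin was digested for 90 min at 37 °C with collagenase and DNase, whereas blood was only freed of red cells, so tissue of origin and digestion cannot be told apart in this comparison. From 55 to 220 blood cells and 220 skin cells were sorted per library. Fewer cells of one state and less RNA per cell cannot be told apart in such bulk libraries.

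ST2, encoded by Il1rl1, is the receptor chain that binds IL-33, an alarmin released by damaged or stressed barrier and stromal cells, and it signals with a shared accessory chain through MyD88 and IRAK kinases to NF-kB. Tregs that carry ST2 are best known from nonlymphoid tissues, where they are linked to GATA3, to amphiregulin and to tissue repair. Circulating Tregs, by contrast, keep receptors that hold lymphocytes in the blood and lymph, among them a receptor for sphingosine 1-phosphate.

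The 9 libraries held 1304560 to 2500529 counts and 12385 to 16929 detected genes. Expression is given as CPM, counts per 1000000 counts of a library after TMM scaling, and log2 fold changes are skin minus blood with their SE from the edgeR fit. Genes that differed by 1.5-fold or more with an adjusted p (Benjamini-Hochberg) no higher than 0.05 are called DEGs. Of 13173 protein-coding genes tested, 3610 were DEGs (27.4%), 1865 higher in skin (14.2%) and 1745 lower in skin (13.2%). The change was at least 16-fold for 519 of the higher DEGs and for 164 of the lower ones. No count was found in any blood library for 342 of the higher DEGs, and none in any skin library for 75 of the lower DEGs. The skin and blood libraries did not overlap for 2885 genes (21.9% of those tested), with skin above blood for 1564 of them (11.9%). With the mouse as a block, a pairing that is real because the same animals gave both tissues, 3675 genes were DEGs.

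The labels were checked against marker genes. CD4 T cell markers (Cd3e, Cd4, Lat and others) summed to 3425.4 to 4043.6 CPM in blood and 2738.4 to 3270.6 CPM in skin, and the 4 Treg markers to 2091.7 to 2680.0 and 3316.6 to 4942.4 CPM. Of 13 tested keratinocyte markers 11 were higher in skin, with sums of 13.7 to 35.2 CPM in blood and 303.8 to 3088.4 CPM in skin. Skin mouse 3 had the highest keratinocyte sum, and 10 keratinocyte markers, Krt14 among them, were at 0 in every blood library. Of 10 tested fibroblast markers 5 were higher in skin, with sums up to 2.8 CPM in blood and of 41.1 to 165.3 CPM in skin. Mast cell markers stood at 664.1 CPM in skin mouse 4 and at 0 in the other skin libraries. Macrophage and dendritic cell markers summed to 300.3 to 645.4 CPM in blood and 595.0 to 886.0 CPM in skin, with 5 of 16 tested markers higher. Lyz2, an abundant gene of macrophages, was 52.4 to 135.2 CPM in blood and 4.1 to 28.9 CPM in skin without passing the test (edgeR adjusted p = 0.051), and C1qa and Adgre1 were at 0 in blood and at most 2.9 and 3.2 CPM in skin. Markers of innate lymphoid and γδ T cells summed to 0 to 25.4 CPM in blood and 38.0 to 246.3 CPM in skin, with 2 of 4 tested markers higher and Kit, which mast cells also make, at 0 in blood and 26.3 to 127.6 CPM in skin. Markers of CD8 T and NK cells summed to 126.2 to 221.7 CPM in blood and 72.7 to 268.8 CPM in skin, and the NK marker Ncr1 was found only in the skin libraries of mouse 1 (33.7 CPM) and mouse 3 (34.0 CPM). Platelet markers summed to 237.6 to 715.9 CPM in blood and 2.7 to 96.7 CPM in skin, and erythrocyte markers to 13.7 to 424.1 and up to 21.1 CPM. B cell markers summed to 706.4 to 928.8 CPM in blood and 217.2 to 394.2 CPM in skin, with Pax5 at 0 in all 9 libraries. The part of these other cells in the differences below was not tested. Leaving out each library in turn cannot test it where every library of a tissue held such markers, as with keratinocytes in skin.

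The 10 DEGs with the smallest adjusted p that were higher in skin included the NF-kB subunit Rel, the nuclear inhibitor of NF-kB Nfkbid, the transcription factor Stat3 and the costimulatory receptor Tnfrsf9 (4-1BB). Rel was 98.6, 49.8, 52.7 and 70.4 CPM in the blood libraries and 1324, 1471, 1118, 1223 and 1344 CPM in the skin libraries. Every skin library thus lay far above every blood library, and the log2 fold change was 4.26 ± 0.26 (adjusted p = 1.6e-20). Nfkbid was 52.4, 10.1, 48.9 and 32.1 CPM in blood and 610.7 to 777.4 CPM in skin, again without overlap (log2 fold change 4.22 ± 0.29). Tnfrsf9 ranged from 22.7 to 135.2 CPM in blood and from 1048 to 1861 CPM in skin (4.27 ± 0.34). Stat3 rose less in proportion, from 266.7 to 331.9 CPM in blood to 1341 to 1594 CPM in skin (2.26 ± 0.15).

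The other 6 genes of this group had other roles. Odc1, the first enzyme of polyamine synthesis, was 59.3, 103.5, 87.2 and 79.4 CPM in blood and 678.0, 892.4, 903.9, 998.8 and 838.9 CPM in skin (log2 fold change 3.38 ± 0.19, adjusted p = 1.1e-21), the smallest p among genes higher in skin. Got1, which passes amino groups between aspartate and glutamate, rose from a mean of 84.0 to 841 CPM, and Slc3a2, the heavy chain of several amino acid transporters, from 222 to 818 CPM. Orai1, the pore of the store-operated calcium channel, rose from 98.5 to 443 CPM, Hacd3, an enzyme of very long chain fatty acid elongation, from 280 to 1092 CPM, and the kinase gene Sik1 from 8.26 to 227 CPM. In each of these genes skin lay above blood without overlap, against 11.9% of all genes tested, but they were picked by this same comparison.

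Among the 10 DEGs lower in skin with the smallest adjusted p, 4 were GTPases of the immunity-associated protein (GIMAP) family, which are made in lymphocytes and bear on their survival. Gimap4 was 1029, 782.8, 782.1 and 816.5 CPM in blood and 16.6, 18.5, 3.2, 24.0 and 18.7 CPM in skin (log2 fold change -5.73 ± 0.21, adjusted p = 6.7e-31), the smallest p of all genes. Gimap7 was 249.8 to 419.4 CPM in blood and 0.6 to 12.8 CPM in skin (-5.58 ± 0.32). Itga4, the integrin chain α4 that binds VCAM-1 or, with β7, MAdCAM-1, was 547.1 to 853.4 CPM in blood and 1.9 to 29.3 CPM in skin (-5.88 ± 0.33). Izumo1r, which encodes folate receptor 4 and is a marker of Tregs in lymphoid tissue, was 219.8 to 370.4 CPM in blood and 14.2 to 28.2 CPM in skin (-3.63 ± 0.25). The others were Gimap6 (-3.09), Gimap3 (-2.65), the nuclear body gene Sp100 (-1.36), Ms4a6b (-2.74), Klhl6 (-2.29) and Tmem71 (-2.92), and in all 10 the skin libraries lay below the blood libraries.

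**Figure D1:**
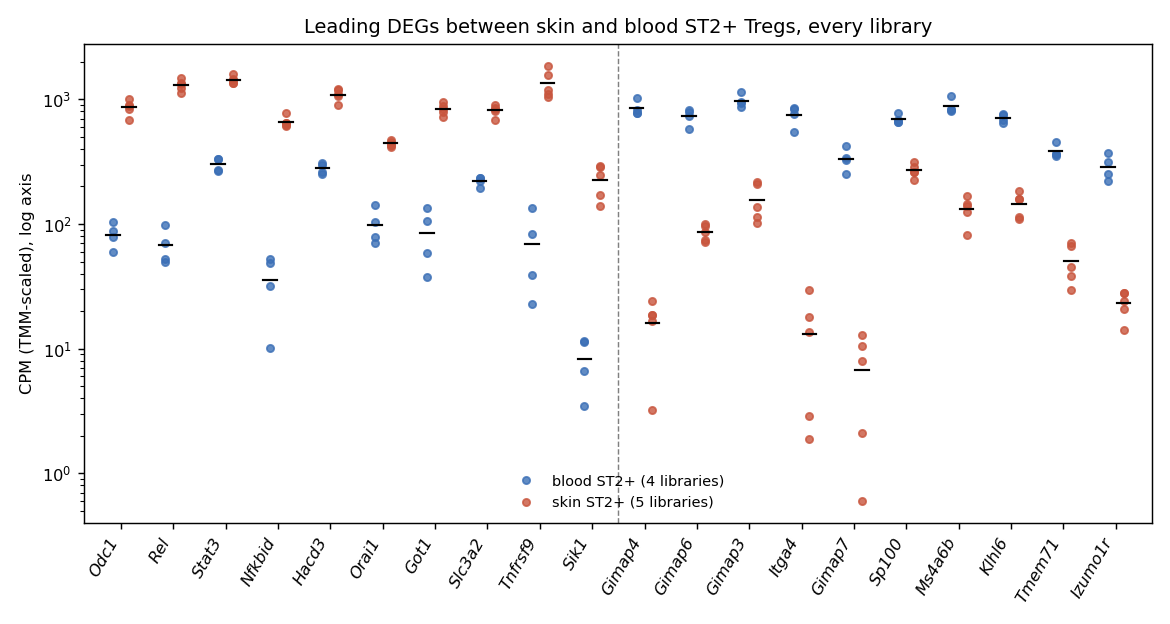
CPM (log axis) of the 10 DEGs higher and the 10 lower in skin ST2+ Tregs with the smallest adjusted p. Points are single libraries, blue for blood (4) and red for skin (5), and bars are means. These genes were picked by this same comparison. In all 20 the blood and skin points do not overlap, against 21.9% of all genes tested.

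The promoters of 4 of these DEGs are shown as examples of both directions, 2 of the NF-kB genes that were higher in skin and 2 of the GIMAP genes that were lower. Each is the stretch of 250 bases just upstream of a RefSeq transcription start (GRCm38.p6), read 5′ to 3′ on the gene's strand, with every match to the searched letters of either strand in capitals. The letters searched were GGGNGGGG for KLF and SP factors, TGACGTCA for CRE factors, GGANTTTCC for NF-kB, TGANTCA for AP-1, TTCNNNGAA for STAT factors and CCGGAAG for ETS factors. Sites of these factors spelled with other letters, those of NF-kB among them, were not counted, so a window without a match may still hold such a site. The Rel gene (ENSMUSG00000020275) lies on the minus strand at chr11:23736847-23770970 and its window at chr11:23770970-23771219. Nfkbid (ENSMUSG00000036931) lies on the plus strand at chr7:30421732-30428746, and the window at chr7:30421481-30421730 belongs to the first of its 3 annotated starts. Gimap4 (ENSMUSG00000054435) and Gimap7 (ENSMUSG00000043931) lie on the plus strand in the GIMAP cluster of chromosome 6, with windows at chr6:48684328-48684577 and chr6:48718371-48718620.
Rel: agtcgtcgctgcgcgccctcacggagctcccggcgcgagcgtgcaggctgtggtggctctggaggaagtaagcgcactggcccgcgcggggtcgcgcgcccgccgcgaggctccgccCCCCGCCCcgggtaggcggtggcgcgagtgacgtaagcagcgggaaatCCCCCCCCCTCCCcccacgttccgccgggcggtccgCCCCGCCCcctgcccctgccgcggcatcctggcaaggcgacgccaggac
Nfkbid: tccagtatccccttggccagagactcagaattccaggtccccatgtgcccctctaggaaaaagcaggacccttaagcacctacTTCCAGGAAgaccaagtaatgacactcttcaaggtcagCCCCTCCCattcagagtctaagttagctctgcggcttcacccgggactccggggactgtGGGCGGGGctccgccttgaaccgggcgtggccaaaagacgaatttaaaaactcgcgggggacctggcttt
Gimap4: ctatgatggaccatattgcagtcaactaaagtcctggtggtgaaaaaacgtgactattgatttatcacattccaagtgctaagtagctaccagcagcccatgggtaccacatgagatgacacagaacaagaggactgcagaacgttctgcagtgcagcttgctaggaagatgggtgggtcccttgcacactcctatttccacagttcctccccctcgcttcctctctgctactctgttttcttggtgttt
Gimap7: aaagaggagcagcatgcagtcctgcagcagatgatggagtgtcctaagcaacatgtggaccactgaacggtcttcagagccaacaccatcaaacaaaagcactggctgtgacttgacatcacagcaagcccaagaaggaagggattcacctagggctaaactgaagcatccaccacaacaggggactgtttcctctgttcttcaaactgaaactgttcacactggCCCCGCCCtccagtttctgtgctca
The Rel window held 5 matches to the KLF and SP letters, of which 3 overlapped each other, and the Nfkbid window held 2 such matches and 1 STAT match. The window of its second start held 1 KLF and SP match and 1 CRE match, and that of the remaining start 1 STAT match. The Gimap7 window held 1 KLF and SP match 25 bases before the start, and the Gimap4 window held no match to any of these letters.

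Over the first window of each gene, 54.2% of 1462 DEGs higher in skin held the KLF and SP letters, against 39.0% of 1391 DEGs lower in skin and 45.4% of all 10361 tested genes with a window. The CRE letters stood in 4.04%, 1.58% and 2.67%, and the NF-kB letters in 1.98%, 0.791% and 1.09%. The ETS letters were more frequent among DEGs lower in skin, at 16.8% against 11.6% of those higher and 13.7% of all tested genes. The AP-1 letters (4.72%, 4.31% and 4.29%) and the STAT letters (5.81%, 5.97% and 5.84%) stood in like shares. Among all 32851 windows of the table the KLF and SP letters stood in 30.8%, the ETS letters in 6.91%, the AP-1 letters in 6.75%, the STAT letters in 7.02%, the CRE letters in 1.55% and the NF-kB letters in 1.07%. These shares are descriptions of the searched letters alone, and no test was made of them.

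Of the 12 genes of the IL-33, IL-1 and IL-18 receptors and their proximal signalling, 5 were higher in skin (41.7%, against 14.2% of all genes tested). Only 1 was lower (8.3%, against 13.2%) and 6 did not pass. Il1rl1 itself was 612.6, 551.6, 527.3 and 497.8 CPM in blood and 1402, 1583, 1421, 1492 and 1671 CPM in skin, although cells of both tissues were sorted on ST2 protein (log2 fold change 1.47 ± 0.41, adjusted p = 0.0038). Il1r2, the decoy receptor that takes up IL-1, rose from 19.9 to 41.6 CPM in blood to 324.4 to 578.9 CPM in skin (3.96 ± 0.67). The kinase gene Irak2 rose (1.23 ± 0.27) and Irak4, whose product acts just upstream of it, fell (-1.5 ± 0.27). Il1rap, the accessory chain shared by ST2 and the IL-1 receptor, was 33.1 ± 19.7 CPM in blood and 40.2 ± 9.49 CPM in skin (SD), and Myd88 was 98.5 ± 43.2 and 122.9 ± 25.1 CPM, so neither differed beyond the spread between libraries. Il18r1 was 285.6 ± 32.8 and 313.3 ± 43.1 CPM. Il18rap was higher in all 5 skin libraries than in any blood library, but its adjusted p was 0.066 (log2 fold change 1.01 ± 0.43). It passed without blood mouse 3 (1.23, adjusted p = 0.048) and with the mouse as a block (1.16, adjusted p = 0.021).

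Of 18 Treg identity genes 11 were higher in skin (61.1%, against 14.2% of all genes tested) and 3 lower (16.7%, against 13.2%). Their median log2 fold change was 0.83, against 0.07 over all genes tested. Foxp3, the lineage factor, was 132.8, 166.5, 149.0 and 145.1 CPM in blood and 364.2, 392.4, 427.9, 413.7 and 380.8 CPM in skin (1.41 ± 0.14, adjusted p = 1.8e-12). Il2ra, the high-affinity chain of the IL-2 receptor, was 227.0 to 296.4 CPM in blood and 761.6 to 1223 CPM in skin (2.02 ± 0.18). Both rose without overlap, as did Il2rb (1.42 ± 0.17), whereas Il2rg did not reach 1.5-fold (0.32 ± 0.11). Itgb8, which with Itgav forms the integrin that frees active TGF-β, was 1.4 to 13.4 CPM in blood and 219.7 to 377.9 CPM in skin (5.25 ± 0.51), and Itgav rose from a mean of 115 to 1410 CPM (3.62 ± 0.36). Nrp1, a surface marker of thymus-derived Tregs, moved the other way, from 575.4 to 769.2 CPM in blood to 30.7 to 107.7 CPM in skin (-3.30 ± 0.27). With Izumo1r and Gpr83 (-5.00 ± 0.77) it made up the 3 lower genes. Ctla4, an inhibitory receptor of Tregs, passed by a small margin (0.67 ± 0.16), its libraries overlapped, and it was under 1.5-fold without blood mouse 3 (0.57) or without skin mouse 4 (0.58). Ikzf2, which encodes Helios, stood just under the threshold (0.57 ± 0.18) and passed without blood mouse 2 (0.65) or skin mouse 1 (0.64), and with the mouse as a block (0.64).

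Of 18 transcription factors linked to tissue Tregs 15 were higher in skin (83.3%, against 14.2% of all genes tested) and none lower. Their median log2 fold change was 1.82. Gata3, a factor of type 2 lymphocytes and of ST2+ Tregs, was 251.3, 275.3, 345.3 and 279.4 CPM in blood and 504.7, 583.1, 593.8, 614.4 and 562.2 CPM in skin (0.99 ± 0.14). Rora, which encodes a retinoid-related orphan receptor, rose from 653.4 to 690.1 CPM in blood to 1712 to 2656 CPM in skin (1.70 ± 0.31). Irf4 and Prdm1, which act in effector Treg differentiation, rose by 2.91 ± 0.70 and 2.15 ± 0.44. Nfil3 (2.35 ± 0.33), Bhlhe40 (2.33 ± 0.27), the hypoxia factor Hif1a (1.63 ± 0.15) and the effector Treg gene Id2 (1.38 ± 0.29) rose too. The 3 that did not pass were Maf, at 316.4 ± 60.7 CPM in blood and 299.2 ± 39.6 CPM in skin, Ahr, the receptor for environmental ligands, at 111.1 ± 12.0 and 137.3 ± 16.8 CPM, and Pparg, the factor of adipose tissue Tregs. Pparg ranged from 0 to 103.1 CPM in blood and was 27.9 ± 17.3 CPM in skin. Its difference of -0.72 became -1.14 without blood mouse 3 and -0.41 without skin mouse 1, and its mean in VAT ST2+ Tregs was 269 CPM.

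Of 14 factors of quiescent and lymphoid T cells 6 were lower (42.9%, against 13.2% of all genes tested), with a median of -0.64. A further 2 were higher, a share (14.3%) near that of all genes (14.2%). Klf2, which drives the genes of recirculation, was 322.5 to 392.1 CPM in blood and 116.9 to 141.6 CPM in skin (-1.53 ± 0.18). Klf3, its relative, was 762.4, 715.4, 813.7 and 727.6 CPM in blood and 59.5, 44.6, 101.2, 65.7 and 51.5 CPM in skin (-3.55 ± 0.25). Tcf7 and Lef1, the factors of naive and memory-like T cells, fell from means of 295.5 and 306.6 CPM to 24.1 and 34.8 CPM (-3.57 ± 0.38 and -3.15 ± 0.23). In these 4 genes no skin library reached a blood library. The 2 higher genes were Bcl6, at 0 to 1.9 CPM in blood and 42.9 to 79.6 CPM in skin (6.35 ± 0.98), and Foxp1 (0.67 ± 0.16), which was under the threshold without blood mouse 5 (0.52) or skin mouse 2 (0.58).

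Genes of egress and lymph node homing were lower in 5 of 12 cases (41.7%, against 13.2% of all genes tested). None was higher (1 higher without blood mouse 2). S1pr1, the receptor that draws lymphocytes toward sphingosine 1-phosphate in blood and lymph, was 854.8, 797.4, 798.9 and 689.3 CPM in blood and 156.7, 231.9, 214.0, 100.3 and 146.3 CPM in skin (-2.21 ± 0.21). S1pr4 (-1.42 ± 0.32) and Arhgap15, a brake on the small GTPase Rac (-1.70 ± 0.16), fell as well, and Itga4, given above, is also on this list. Ccr7, the other classical lymph node receptor, was 244.9 ± 132 CPM in blood and 377 ± 98.4 CPM in skin (0.62 ± 0.45), a difference that dropped to 0.29 without blood mouse 5. Il7r, the IL-7 receptor, was 946.9 ± 106 and 1024 ± 113 CPM.

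Of 17 chemokine receptors tested, 6 were higher in skin (35.3%, against 14.2% of all genes tested), 3 were lower (17.6%, against 13.2%) and 8 did not pass. Ccr8, a receptor tied to skin homing, was 22.8, 2.6, 24.9 and 59.1 CPM in blood and 559.8, 710.6, 674.6, 781.3 and 576.8 CPM in skin (4.59 ± 0.39). Ccr1, a receptor for inflammatory chemokines, was at most 12.3 CPM in a blood library and at least 133.1 CPM in a skin library (5.17 ± 0.89). Cxcr4 (2.48 ± 0.30) and Cxcr6 (1.88 ± 0.48), which bind CXCL12 and CXCL16, rose without overlap. Cx3cr1 was at 0 in all blood libraries and at most 6.4 CPM in skin. It was at least 5.45-fold higher against a floor of 3 counts over the blood libraries, and missed the threshold without any 1 of the blood libraries, skin mouse 2 or skin mouse 3 (adjusted p 0.052 to 0.11). Cxcr3, the receptor of type 1 inflammation, was 311.5 to 437.6 CPM in blood and 6.6 to 43.9 CPM in skin (-4.21 ± 0.49). Ccr9 and Gpr15, which guide cells to the gut, were lower (-4.96 ± 1.78 and -1.42 ± 0.52), Ccr9 at low counts. Their libraries overlapped, and the count of lower receptors dropped from 3 to 1 without blood mouse 4, skin mouse 2 or skin mouse 5. Gpr15 was not called without blood mouse 2 (-1.15, adjusted p = 0.12), blood mouse 4 or skin mice 2 to 5, and Ccr9 was not called without blood mouse 4 (-4.03, adjusted p = 0.11), skin mouse 1, skin mouse 2 or skin mouse 5. Both were named after their values were seen. The receptors Ccr2, Ccr3, Ccr4 and Ccr10 stood at 744.2, 143.6, 155.8 and 85.5 CPM in blood ST2+ Tregs and at 808, 160, 142.8 and 87.5 CPM in skin, and none of these 4 differed beyond the spread between libraries. Ccr10 was 19.9, 214.5, 35.0 and 72.3 CPM in blood, with mouse 3 above the other blood libraries. Ccr6 was higher in every skin library than in any blood library but missed the threshold (1.25 ± 0.54, adjusted p = 0.074).

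Of 23 integrin and selectin ligand genes 7 were higher (30.4%, against 14.2% of all genes tested) and 4 lower (17.4%, against 13.2%). The median was -0.17, and the lower share was near that of all genes. The 7 higher genes include Itgax, which is also on the list of macrophage and dendritic cell markers. Itgax was at 0 in every blood library, 22.3 and 7.7 CPM in skin mice 1 and 3, and 0 in the other skin libraries. The part of other cells in its difference was not tested. Besides Itgb8 and Itgav, Cd44 rose (1.99 ± 0.22), although CD44hi cells were sorted from both tissues. Gcnt1, an enzyme that builds selectin ligands, was 22.2, 5.3, 50.3 and 39.2 CPM in blood and 455.7, 367.0, 483.7, 480.3 and 506.6 CPM in skin (3.97 ± 0.72). Itgae, the chain of CD103 that holds cells to E-cadherin of epithelium, was 303.7 to 569.2 CPM in blood and 965.0 to 1267 CPM in skin. Its libraries did not overlap, yet its adjusted p was 0.049 and rose to between 0.05 and 0.11 when any one of the 9 libraries was left out (log2 fold changes 1.35 to 1.68, against 1.47 ± 0.58), and with the mouse as a block the adjusted p was 0.05. The lower integrins were Itga4, Itgb1, Itgb3 and Itga6. Itgb1, which pairs with Itga4, was 1346 to 1593 CPM in blood and 168.7 to 323.1 CPM in skin (-2.62 ± 0.22). Itgb3 (-1.09 ± 0.30) and Itga6 (-0.98 ± 0.30) were lower, and platelets, whose summed markers were higher in blood, carry both. The part of platelets was not tested. The other partner of Itga4, Itgb7, lay lower in every skin library but under 1.5-fold (-0.56 ± 0.10), and passed without blood mouse 5 (-0.60), skin mouse 2 (-0.60), skin mouse 3 (-0.63) or skin mouse 4 (-0.60). Itgal, the chain of LFA-1, was 296.5 ± 75 and 263.8 ± 45.0 CPM.

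Suppressive and repair molecules were higher in 12 of 21 cases (57.1%, against 14.2% of all genes tested) and lower in none. Il10 was 9.1, 0.9, 3.4 and 5.2 CPM in blood and 219.7, 367.0, 353.0, 289.4 and 327.6 CPM in skin (6.11 ± 0.52). Areg, the epidermal growth factor ligand amphiregulin, was 14.2, 23.3, 12.9 and 76.6 CPM in blood and 292.8 to 400.6 CPM in skin (3.39 ± 0.38). For both genes every skin library lay above every blood library. Penk, the precursor of enkephalins, rose from a mean of 17.5 to 507 CPM (4.88 ± 0.89), Gzmb, the cytotoxic protease granzyme B, from 74.2 to 574 CPM (2.95 ± 0.63), Fgl2, a secreted suppressor, from 86.3 to 388 CPM (2.17 ± 0.37), and Furin, a protease that matures TGF-β, from 23.9 to 160 CPM (2.73 ± 0.43). Entpd1 and Nt5e, the ectoenzymes that make adenosine, did not differ, at 67.6 ± 38.8 and 48.6 ± 34.3 CPM and at 381.9 ± 32.8 and 433.3 ± 79.5 CPM. Ebi3, a subunit of IL-35, was 57.7 ± 14.7 and 87.7 ± 11 CPM.

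Costimulatory and inhibitory receptors were higher in 11 of 23 cases (47.8%, against 14.2% of all genes tested) and lower in 2 (8.7%, against 13.2%). Tnfrsf1b, the TNF receptor that supports Tregs, rose from a mean of 143 to 1680 CPM (3.55 ± 0.31), Tnfrsf4 (OX40) from 528.5 to 1173 CPM (1.15 ± 0.14) and Icos from 706 to 1827 CPM (1.37 ± 0.17). Pdcd1 (PD-1) varied widely in blood, at 23.9, 13.7, 194.9 and 87.9 CPM, and was 313.0 to 579.6 CPM in skin (2.46 ± 0.44). Havcr2 (TIM-3) was at 0 in all blood libraries but that of mouse 4 (6.2 CPM) and 88.4 to 195.5 CPM in skin. Its fitted log2 fold change of 6.58 ± 1.09 became 11.29 without blood mouse 4. Cd96 (-2.79 ± 0.26) and Cd226 (-2.05 ± 0.22), which share ligands of the nectin family, were the 2 lower receptors. Klrg1, an inhibitory receptor of differentiated Tregs, was 469.8 to 549.4 CPM in blood and 444.7 to 790.1 CPM in skin (0.26 ± 0.50).

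**Figure D2:**
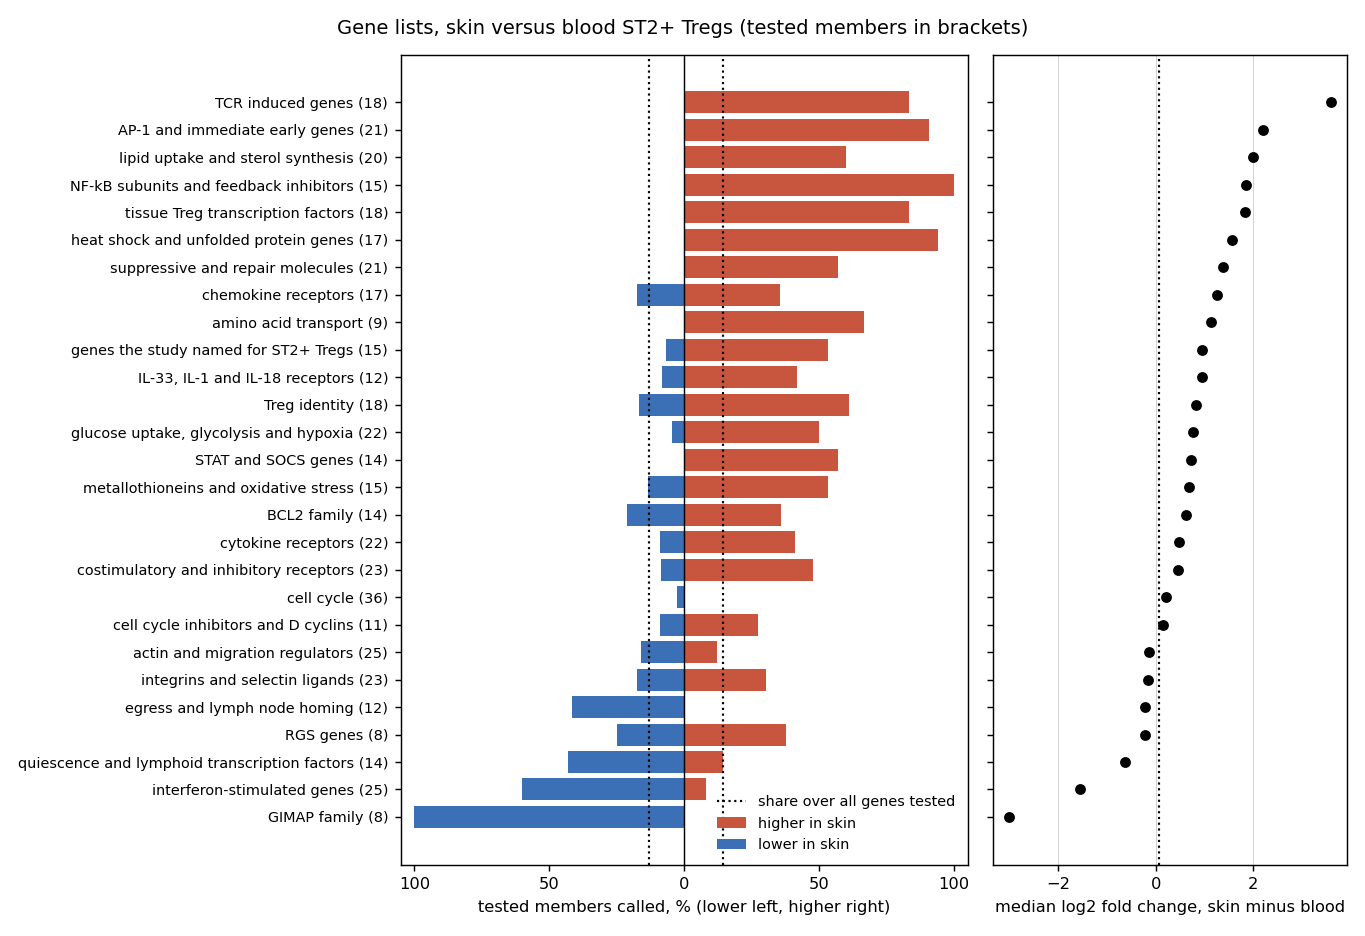
Left, share of tested members of each of 27 gene lists that were DEGs higher (red) or lower (blue) in skin than in blood ST2+ Tregs, with dotted lines at the shares over all genes tested (14.2% and 13.2%). Right, median log2 fold change of each list, with the median of all genes (0.07) dotted. All 15 tested NF-kB genes were higher and all 8 GIMAP genes were lower.

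Genes of antigen receptor and stress signalling were higher in skin across lists that share some members, such as Egr1, Ier3 and Nfkbiz. Of 18 genes induced through the T cell receptor 15 were higher (83.3%, against 14.2% of all genes tested) and none lower. Their median log2 fold change was 3.60. Nr4a1, a reporter of receptor signals, was 21.1, 2.6, 18.7 and 12.8 CPM in blood and 1023, 1058, 1177, 1056 and 1078 CPM in skin (6.31 ± 0.51), and its relatives Nr4a2 (7.73 ± 0.76) and Nr4a3 (6.51 ± 0.53) rose alike. Cd83, an activation marker, was 52.4 to 72.9 CPM in blood and 827.9 to 920.5 CPM in skin (3.79 ± 0.40). Myc, a transcription factor of growth in activated lymphocytes, did not follow, at 120.6 ± 31.0 and 127.2 ± 43.6 CPM. Nfatc1, a factor activated by calcium, did not pass either (0.52 ± 0.19), but did without blood mouse 4 (0.63) or skin mouse 4 (0.60).

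Of 21 AP-1 and immediate early genes 19 were higher (90.5%, against 14.2% of all genes tested), none was lower, and the median was 2.19. Fosl2 rose from a mean of 5.38 to 374 CPM (6.11 ± 0.51), Atf3 from 2.94 to 317 CPM (6.88 ± 0.73) and Fos from 211 to 1099 CPM (2.38 ± 0.55). Junb rose less (0.94 ± 0.18). Klf4 had no count in any blood library and was 98.5, 113.2, 117.2, 71.9 and 91.8 CPM in skin, at least 270-fold above a floor of 3 counts over the blood libraries. Keratinocytes also make Klf4, and their summed markers ranged from 303.8 to 3088.4 CPM over the same skin libraries. Their part in this difference was not tested. Jun overlapped, at 28.4 to 58.2 CPM in blood and 19.3, 289.5, 166.6, 276.1 and 113.5 CPM in skin (2.09 ± 0.47). Ier2 (0.51 ± 0.15) and Btg2 (0.14 ± 0.20) did not pass.

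Of 17 heat shock and unfolded protein genes 16 were higher (94.1%, against 14.2% of all genes tested), with a median of 1.57. Hspa1a, a chaperone made upon heat and protein damage, was at 0 in 3 blood libraries and 12.5 CPM in that of mouse 4, and 260.7 to 395.1 CPM in skin. The fitted log2 fold change was 6.57 ± 1.19, or 12.25 without blood mouse 4. Hsp90aa1 (1.76 ± 0.20), Hspa8 (1.12 ± 0.16) and the endoplasmic reticulum chaperone gene Hspa5 (1.08 ± 0.12) rose by smaller factors from higher levels. The mitochondrial chaperone gene Hspd1 was the exception, at 94.6 ± 5.99 and 85.8 ± 13.5 CPM.

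All 15 NF-kB subunits and feedback inhibitors were higher in skin, against 14.2% of all genes tested, with a median of 1.85. In all 15 the skin libraries lay above the blood libraries, against 11.9% of all genes tested. Besides Rel and Nfkbid, the subunit genes Nfkb1 (1.85 ± 0.21), Nfkb2 (2.06 ± 0.27), Relb (2.09 ± 0.29) and Rela (0.73 ± 0.15) rose. Of the feedback genes, Nfkbiz rose by 2.19 ± 0.21, Bcl3 by 2.15 ± 0.19, Traf1 by 1.61 ± 0.14 and Tnfaip3, which encodes the deubiquitinase A20, by 1.21 ± 0.17. The digestion of the skin was not varied, so its part in these 4 groups of genes cannot be told apart from that of the tissue. 

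Of 14 genes on the list of STAT and SOCS genes 8 were higher (57.1%, against 14.2% of all genes tested) and none lower (5 higher without skin mouse 1). The 8 include Pim1 and Bcl3, which are neither STAT nor SOCS genes, and Bcl3 is also on the NF-kB list. Stat5a, a carrier of IL-2 signals, was 74.6, 167.0, 52.2 and 40.7 CPM in blood and 414.3 to 521.8 CPM in skin (2.44 ± 0.34), and Cish, a target of STAT5, rose from a mean of 169 to 587 CPM (1.79 ± 0.18). Stat4, which carries IL-12 signals, did not pass (-0.13 ± 0.15). Of 22 other cytokine receptor genes 9 were higher (40.9%, against 14.2%) and 2 lower (9.1%, against 13.2%). Il21r (1.88 ± 0.22), Il4ra (2.39 ± 0.30) and the shared IL-6 family chain Il6st (2.21 ± 0.29) rose, and Il27ra (-0.91 ± 0.14) and Il15ra (-1.76 ± 0.31) fell.

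Metabolic genes were higher in part of each list. Lipid and sterol genes were higher in 12 of 20 cases, against 14.2% of all genes tested, and lower in none. Dgat2, which makes triglycerides, was 18.8 CPM in blood mouse 2 and 0 in the other blood libraries, and 751.1, 1163, 825.7, 993.4 and 743.5 CPM in skin. Its log2 fold change was 7.70 ± 0.97, or 13.81 without blood mouse 2. Dgat1, with the same reaction, was 69.0 to 128.8 CPM in blood and 623.8 to 817.0 CPM in skin (2.72 ± 0.28), and the sterol synthesis gene Hmgcs1 rose too (1.78 ± 0.34). Fabp4, a called gene of this list that is also an adipocyte marker, was at 0 in blood and 2.9 to 82.6 CPM in skin. The part of other cells in its difference was not tested. Of 22 glucose and hypoxia genes 11 were higher, against 14.2% of all genes tested. Only 1, the kinase gene Pdk1, was lower (-1.06 ± 0.28), against 13.2%. Gapdh (1.74 ± 0.27), Aldoa (0.94 ± 0.12) and Pkm (0.78 ± 0.11) rose, Hk2 rose from 2.75 to 28.4 CPM (3.34 ± 0.90), and Hk1 (-0.43 ± 0.28) and Ldha (0.35 ± 0.13) did not pass. Amino acid transport genes were higher in 6 of 9 cases (66.7%, against 14.2%). Slc38a2 (2.48 ± 0.24) and Slc7a5, the partner of Slc3a2 (4.16 ± 0.61), rose in addition to Slc3a2.

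Cell cycle genes did not follow. Of 36, none was higher, against 14.2% of all genes tested. Only 1 (2.8%, against 13.2%), the chromatin protein gene Hmgb2, was lower (-0.81 ± 0.25). Mki67 was 83.2, 59.9, 62.7 and 149.9 CPM in blood and 35.9, 94.0, 180.0, 139.4 and 168.5 CPM in skin (0.47 ± 0.63), and Top2a, another gene of dividing cells, did not pass either (0.70 ± 0.61). Blood mouse 5 and skin mouse 1 set the overlap of Mki67. Without blood mouse 5, 9 of the 36 genes were higher in skin, and 2 were lower without blood mouse 2, blood mouse 3, skin mouse 1 or skin mouse 4. Hmgb2 was named after its value was seen. The arrest gene Cdkn1a (p21) rose from 1.3 to 32.6 CPM in blood to 316.5 to 464.4 CPM in skin (4.26 ± 0.56).

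In the BCL2 family 5 of 14 genes were higher (35.7%, against 14.2% of all genes tested) and 3 lower (21.4%, against 13.2%). The survival genes Bcl2 and Bcl2l1 (BCL-XL) moved in opposite directions. Bcl2 was 174.9, 115.4, 183.4 and 143.7 CPM in blood and 25.4, 33.6, 11.5, 6.2 and 4.7 CPM in skin (-3.20 ± 0.34). Bcl2l1 was 40.5, 27.8, 41.2 and 74.7 CPM in blood and 496.4, 430.8, 490.1, 415.5 and 430.6 CPM in skin (3.30 ± 0.44). Neither gene overlapped between tissues, while Mcl1, the third main survival gene, was 380.6 ± 86.7 and 456.1 ± 41.8 CPM. The death-promoting genes Bad (-1.51 ± 0.31) and Bid (-0.92 ± 0.24) were lower.

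The GIMAP family was lower as a whole, 8 of 8, against 13.2% of all genes tested, with a median of -3.01. The 8 genes lie in a cluster on chromosome 6 between positions 48647234 and 48770851 (GRCm38). Besides those given above, Gimap5 (-2.99 ± 0.21), Gimap9 (-3.04 ± 0.22), Gimap1 (-2.61 ± 0.20) and Gimap8 (-2.09 ± 0.24) fell, each without overlap. The loss was not even. Gimap8 went from 175.3 ± 31.3 to 41.4 ± 17.6 CPM (SD), whereas little of Gimap4 and Gimap7 remained.

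Interferon-stimulated genes were lower in 15 of 25 cases, against 13.2% of all genes tested, with a median of -1.55. Ifit2, an antiviral protein gene, fell by 3.59 ± 0.62 on the log2 scale, and Xaf1 by 2.21 ± 0.34. Usp18, a brake on interferon signalling, was 144.2, 44.1, 55.6 and 9.9 CPM in blood and at most 3.8 CPM in skin (-5.44 ± 0.99), so its blood libraries varied widely while the skin libraries were all near 0. The 2 higher genes (8.0%, against 14.2%), Isg15 (1.17 ± 0.42) and Gbp3 (0.63 ± 0.25), both passed by a small margin. No gene of the list was higher without blood mouse 3, blood mouse 5, skin mouse 3 or skin mouse 5. The count was 1 with the mouse as a block and without blood mouse 4, skin mouse 1, skin mouse 2 or skin mouse 4, and it was 3 without blood mouse 2, where Isg15 reached 1.80. Gbp3 was named after its value was seen.

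Among the remaining lists, 8 of 15 metallothionein and oxidative stress genes were higher (53.3%, against 14.2% of all genes tested). A further 2 were lower (1 lower without blood mouse 3 or skin mouse 2), a share (13.3%) near that of all genes (13.2%). Sqstm1, an autophagy receptor, rose by 1.13 ± 0.10. Mt1, which binds zinc and copper, was 7.9 to 25.6 CPM in blood and 18.4, 247.6, 144.1, 172.2 and 50.3 CPM in skin (3.07 ± 0.66), with skin mouse 1 within the blood range. Of 8 RGS genes, which shorten signals of chemokine receptors, 3 were higher (against 14.2% of all genes), among them Rgs16 (3.74 ± 0.64). Another 2, Rgs14 (-1.29 ± 0.15) and Rgs19 (-0.93 ± 0.15), were lower, against 13.2%. Actin and migration regulators differed little, with 3 of 25 higher (1 higher without skin mouse 2 or skin mouse 4) and 4 lower, shares close to those over all genes. Rasgrp2, the activator of the integrin switch Rap1, was among the lower genes (-2.22 ± 0.26).

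Of 15 genes the study names for ST2+ Tregs, a list drawn partly from these samples, 8 were higher (53.3%, against 14.2%). Only 1 was lower (6.7%, against 13.2%). Besides genes already given, Lyn (2.06 ± 0.41), Rab4a (2.36 ± 0.68) and Ptpn13 (0.95 ± 0.30) were higher. Tbc1d4, a regulator of vesicle traffic, was 48.4, 53.7, 84.3 and 95.0 CPM in blood and 0, 1.4, 0, 7.1 and 0 CPM in skin (-5.72 ± 0.82).

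ST2- CD44hi Tregs of the same mice served to ask where the difference between skin and blood was not the same in ST2+ Tregs. The change of ST2+ Tregs differed from that of ST2- Tregs for 149 genes (1.13% of 13173). It was above that of ST2- Tregs for 66 (0.501%) and below it for 83 (0.630%). For 3 of the 5 genes below with the smallest adjusted p, blood ST2+ Tregs lay near the skin level and blood ST2- Tregs far below it. Anxa1, an annexin of the resolution of inflammation, was 211.7 ± 69.9 CPM in blood and 325.4 ± 78.9 CPM in skin ST2+ Tregs, against 7.34 ± 8.51 and 300.6 ± 76.4 CPM in ST2- Tregs (difference of the changes -4.71 ± 0.73, adjusted p = 6.5e-05). Ltb4r1, a leukotriene receptor, was 109.6 and 129.4 CPM in ST2+ and 2.49 and 98.3 CPM in ST2- Tregs (-5.13 ± 0.78), and Klrg1 was 512.5 and 616.4 CPM against 13 and 319 CPM (-4.39 ± 0.77).

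Other genes followed this order of levels. Ccr2 was 744.2 and 808 CPM in blood and skin ST2+ Tregs but 114.4 and 951 CPM in ST2- Tregs (-2.94 ± 0.62), and Ccr3 was 143.6 and 160.1 CPM against 1.52 and 57.2 CPM (-5.02 ± 1.12). Maf was 316.4 and 299.2 CPM against 86.8 and 398 CPM (-2.28 ± 0.42). Il1rl1 differed too (-2.86 ± 0.65), which the sort on ST2 bears on directly. For Areg (-3.33 ± 0.60), Nfil3 (-2.07 ± 0.45), Fgl2 (-2.43 ± 0.51), Icos (-1.22 ± 0.23), Lyn (-2.90 ± 0.57) and Cdkn1a (-4.24 ± 0.91) the skin mean was above the blood mean in both populations, by a larger factor in ST2- Tregs, whose blood level was lower. The changes of Ccr4 (-2.08 ± 0.53), Ccr10 (-7.11 ± 1.71), Bhlhe40 (-1.44 ± 0.36), Mt1 (-4.69 ± 1.09) and Rgs14 (-1.04 ± 0.20) differed as well. Bhlhe40 was not called without blood mouse 5 (-1.17) or skin mouse 5 (-1.39), Ccr4 without blood mouse 2 (-1.99), skin mouse 4 (-2.01) or skin mouse 5 (-2.02), and Ccr10 without blood mouse 3 (-6.10).

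Cxcr3 and Gimap4 differed in another way. Cxcr3 was 271 ± 122 CPM in blood and 257.3 ± 62.1 CPM in skin ST2- Tregs, against 362 and 19.3 CPM in ST2+ Tregs (-4.13 ± 0.62, adjusted p = 6.3e-05). Gimap4 was lower in skin in both, at 60.03 ± 18.3 CPM in skin ST2- Tregs and 16.2 ± 7.77 CPM in skin ST2+ Tregs (-1.80 ± 0.26).

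Genes whose change in ST2+ Tregs lay above that in ST2- Tregs included Il2ra, which went from 475.4 ± 84.8 to 750.7 ± 195 CPM in ST2- Tregs and from 250.9 ± 31.0 to 1017 ± 168 CPM in ST2+ Tregs (1.36 ± 0.23, adjusted p = 0.00075). Pcgf5 (1.63 ± 0.29), Foxn3 (1.14 ± 0.20), Foxp1 (1.17 ± 0.21) and the RNA export gene Nxf1 (1.01 ± 0.18) completed the 5 with the smallest adjusted p. Rel (1.37 ± 0.31), Il6st (1.75 ± 0.38) and Slc7a5 (3.21 ± 0.74) were further genes of this direction. Bcl2 stood at 727.8 ± 90.8 CPM in blood ST2- Tregs, far above the 154.4 ± 31.1 CPM of blood ST2+ Tregs, and at 12.3 and 16.3 CPM in skin (2.62 ± 0.49). Myc was 212.2 CPM in blood and 54.8 CPM in skin ST2- Tregs, and 120.6 and 127.2 CPM in ST2+ Tregs (2.04 ± 0.42).

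Of the 30 named genes whose change differed, 10 were not called with limma's voom quality weights, the model of the study. These were Areg, Bcl2, Bhlhe40, Fgl2, Gimap4, Il1rl1, Klrg1, Myc, Rel and Slc7a5. With only the groups compared in the fit 10 were not called, namely Bhlhe40, Ccr4, Fgl2, Il1rl1, Myc, Nfil3, Nxf1, Rel, Rgs14 and Slc7a5.

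The ST2+ Tregs of the other tissues were placed on a scale on which the mean log2 CPM of blood is 0 and that of skin is 1. Over the 1865 DEGs higher in skin the median position was 0.19 for spleen, 0.41 for lungs, 0.39 for VAT and 0.51 for colon. Over the 1745 DEGs lower in skin it was 0.10, 0.26, 0.31 and 0.29. The spleen thus lay nearest to the blood in both directions. These positions share the blood and skin libraries and are descriptions. Lungs, VAT and colon were digested with collagenase and DNase at 37 °C, as skin was but for a shorter time, whereas the spleen was only mechanically disrupted, so tissue and digestion cannot be told apart here either. The spleen and lung samples were also enriched for CD4 cells before the sort, and blood and skin were not.

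Gene groups differed in where the other tissues stood. The AP-1 genes higher in skin had a median position of 1.08 in VAT, 1.03 in colon, 0.81 in lungs and 0.15 in spleen, and the T cell receptor induced genes 1.0, 0.88, 0.66 and 0.37. Nr4a1 was 945.88 to 1198.54 CPM in VAT, a range that takes in that of skin. The NF-kB genes stood at 0.71 in VAT, 0.48 in colon, 0.57 in lungs and 0.22 in spleen, and the heat shock genes at 0.43, 0.65, 0.20 and 0.16. The 6 quiescence factors lower in skin stood at 0.74 in VAT and 0.49 in colon. Klf3, for instance, was 51.82 to 219.05 CPM in VAT and 44.59 to 101.22 CPM in skin, ranges that overlap.

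The median of the GIMAP genes stood near the blood level in the other tissues, at positions of -0.03 in spleen, 0.08 in lungs, 0.02 in VAT and 0.09 in colon. Gimap4 was 687.73 to 883.20 CPM in spleen, 598.04 to 764.51 CPM in lungs, 658.71 to 981.75 CPM in VAT and 594.27 to 656.57 CPM in colon, and no skin library exceeded 23.97 CPM. All lung and colon libraries lay below the blood libraries (782.12 to 1029.13 CPM), and Gimap8 had a mean of 104 CPM in colon. Itga4 was 301.51 CPM or more in each library of these tissues and 29.30 CPM or less in skin. Rel was 597.17 CPM or less outside the skin and 1118.49 CPM or more in it, and Dgat2 was at most 144.89 CPM outside it. Il10 differed from these, since VAT libraries (262.61 to 767.21 CPM) and colon libraries (334.88 to 687.12 CPM) reached or passed the level of skin. Bcl2 was 295 CPM in spleen, 175 CPM in lungs, 115 CPM in VAT and 101 CPM in colon, each above the skin mean.

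**Figure D3:**
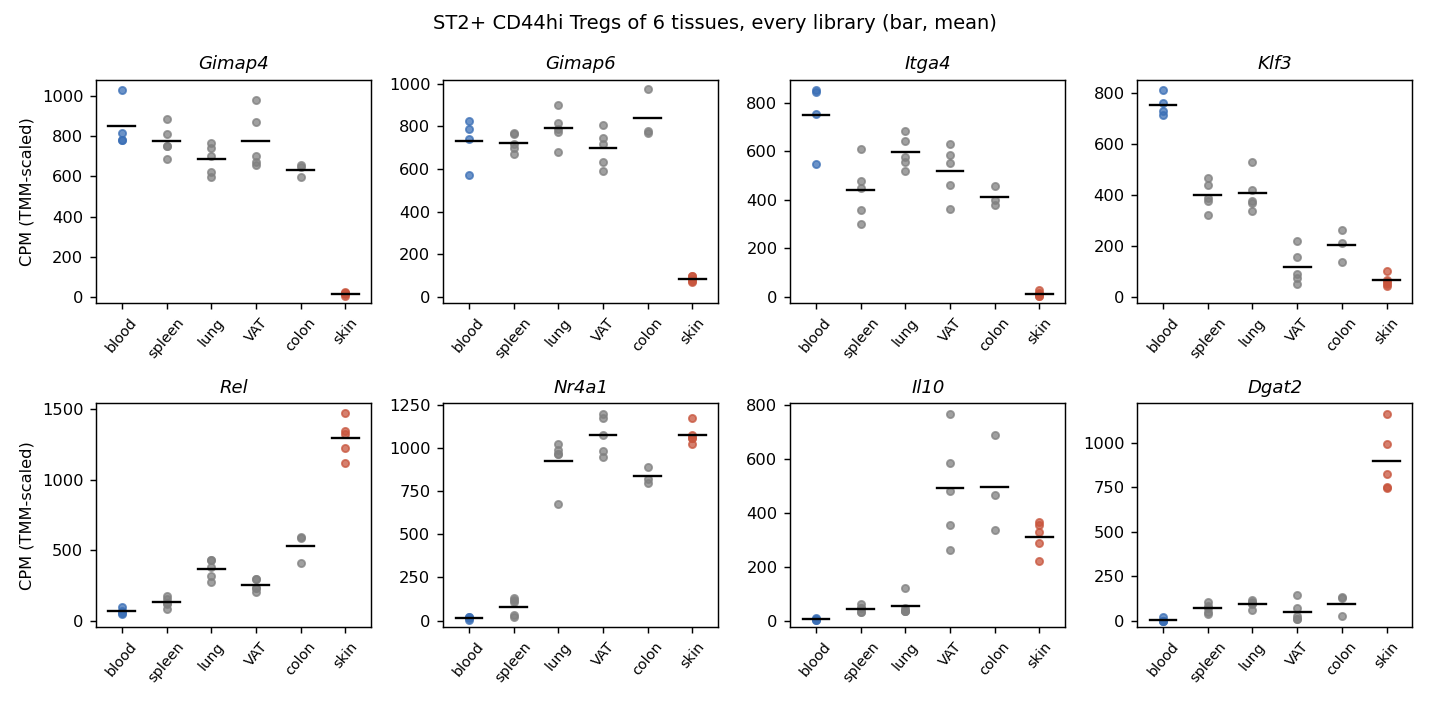
CPM of 8 genes in ST2+ CD44hi Tregs of 6 tissues, with points for single libraries, bars for means, blood in blue and skin in red. Gimap4, Gimap6 and Itga4 are low in the skin libraries alone among those plotted, Klf3 is low in VAT as well, Nr4a1 is high in lungs, VAT, colon and skin, and Dgat2 is high in the skin libraries.

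**Figure D4:**
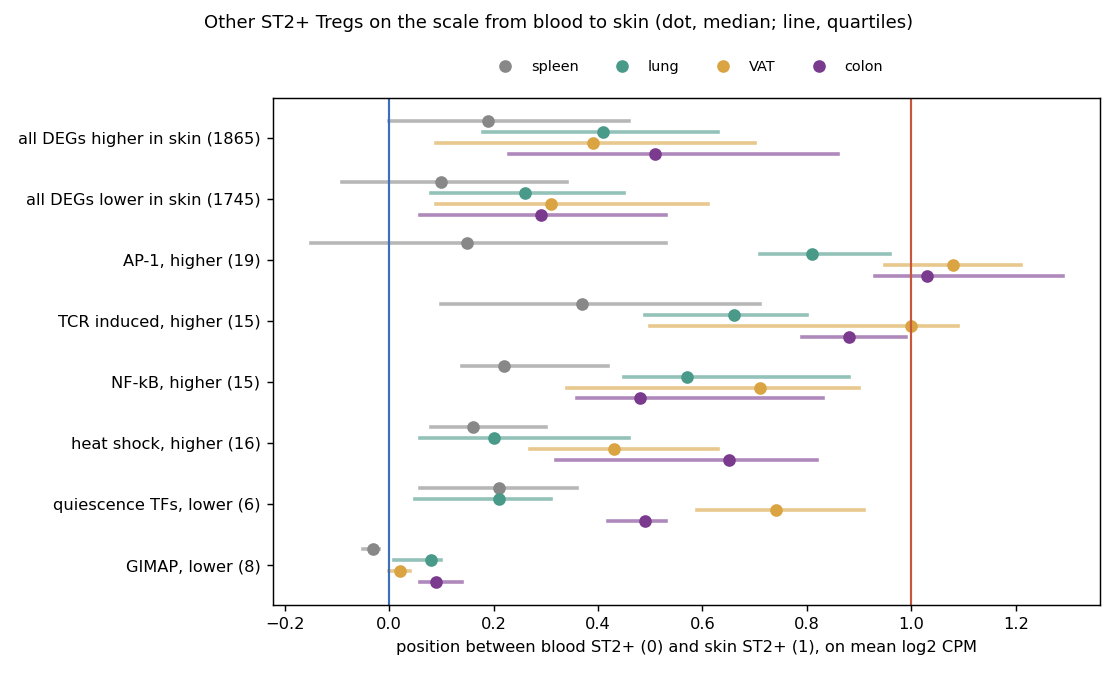
Median position (dot) and quartiles (line) of ST2+ Tregs of spleen, lungs, VAT and colon between blood (0, blue line) and skin (1, red line), over all DEGs in each direction and over the DEGs of 6 gene lists, with the number of genes in brackets. The medians of the AP-1 genes in VAT and colon lie at the skin end, and those of the GIMAP genes in all 4 tissues lie near the blood end.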

How the data were processed

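RNA of sorted Tregs was sequenced as 58-base single reads. Per the labels and the study's methods, the authors converted base calls with CASAVA (1.8.2), trimmed the reads, aligned them with STAR to GRCm38 and deposited HTSeq (0.4.1) read counts per gene, 1 column per library. Whether strand was used in counting is not given in the sources used here, so reads of overlapping and antisense genes may not be told apart. The deposited table held 53465 gene identifiers and 70 libraries.

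Libraries over 1000000 counts (67, with 1304560 to 2759926 counts) and those 13173 protein-coding genes that reached 1 CPM in 10% of them were kept. All 14 groups were fitted together by edgeR's quasi-likelihood test (edgeR 4.0.16, R 4.3.3, TMM factors), with Benjamini-Hochberg adjustment over all tested genes and a 1.5-fold minimum. The study's own model, limma with voom quality weights (3.58.1), and DESeq2 (1.42.0) were among the alternatives. CPM were computed in R with the TMM factors, and positions and motifs in Python (3.11.15). The fitting code was tested on simulated data. Counting error and the differences between mice both limit genes of few counts.

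Blood and skin came from the same mice, so the mouse as a block was an alternative. Deviations from the group means correlated at -0.013 to 0.057 between libraries of the same mouse and at -0.045 to 0.052 between those of different mice.

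In each direction, the 10 DEGs of smallest adjusted p were named, as were up to 4 DEGs in each direction per gene list and the members that define it, genes the study names, and the 5 genes in each direction with the smallest adjusted p of the difference between ST2+ and ST2- Tregs. The lists and the comparison were chosen with earlier results of these data known. Some genes, Rel, Relb and Bcl3 among them, recur between lists, so the lists are not independent. Of the tested genes 10361 had a RefSeq promoter window.

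Some items are not reported here.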

Additional observations from a re-analysis of the deposited data

Results flagged for a closer look

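Single libraries lay far from the others of their group for 29 of 358 groups of values, where chance alone marks about 1 in 20 (Dixon's test at the 95% level). A group in which only 1 library held counts is always marked, so that rate is a rough guide. The blood library of mouse 2 stood far above the other blood libraries for Atf3 (10.8 CPM), Dgat2 (18.8 CPM), Gimap4 (1029.1 CPM), Junb (871.9 CPM), Ms4a6b (1067.9 CPM), Myc (167.0 CPM) and Tmem71 (457.6 CPM). The blood library of mouse 3 stood far above the other blood libraries for Tnfaip3 (1234.4 CPM). It stood far below them for Il7r (788.6 CPM) and Pkm (348.0 CPM). The blood library of mouse 4 stood far above the other blood libraries for Havcr2 (6.2 CPM), Hspa1a (12.5 CPM) and Rgs14 (370.7 CPM). The blood library of mouse 5 stood far above the other blood libraries for Areg (76.6 CPM). It stood far below them for Foxp1 (187.2 CPM) and Itgb7 (950.3 CPM). The skin library of mouse 1 stood far above the other skin libraries for Gbp3 (309.0 CPM), Gpr15 (215.4 CPM), Nfkbid (777.4 CPM) and Xaf1 (44.2 CPM). It stood far below them for Il21r (687.7 CPM). The skin library of mouse 2 stood far above the other skin libraries for Ccr6 (515.2 CPM). The skin library of mouse 3 stood far above the other skin libraries for Hmgcs1 (233.2 CPM) and Klf2 (141.6 CPM). It was also marked for Ccr9 (0.6 CPM), where it held the only count (1) of the skin libraries. The skin library of mouse 4 stood far above the other skin libraries for Gpr83 (7.1 CPM) and Tbc1d4 (7.1 CPM). It stood far below them for Cd96 (50.6 CPM) and Gapdh (66.6 CPM).

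Among the genes named, the log2 change from blood to skin differed between ST2+ and ST2- CD44hi Tregs for 30 by edgeR's test of the difference itself. The change of ST2+ Tregs lay above that of ST2- Tregs for Bcl2 (2.62), Foxn3 (1.14), Foxp1 (1.17), Il2ra (1.36), Il6st (1.75), Myc (2.04), Nxf1 (1.01), Pcgf5 (1.63), Rel (1.37) and Slc7a5 (3.21). It lay below for Anxa1 (-4.71), Areg (-3.33), Bhlhe40 (-1.44), Ccr10 (-7.11), Ccr2 (-2.94), Ccr3 (-5.02), Ccr4 (-2.08), Cdkn1a (-4.24), Cxcr3 (-4.13), Fgl2 (-2.43), Gimap4 (-1.80), Icos (-1.22), Il1rl1 (-2.86), Klrg1 (-4.39), Ltb4r1 (-5.13), Lyn (-2.90), Maf (-2.28), Mt1 (-4.69), Nfil3 (-2.07) and Rgs14 (-1.04). ST2 was gated, so the value of Il1rl1 is not independent of the sort.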

How the results depend on the processing

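The count of 3610 DEGs was 2033 when the 1.5-fold minimum was part of the test (glmTreat), with 1087 higher and 946 lower in skin. With only the groups compared in the fit, 1104 genes were lower. The 149 genes whose change differed between ST2+ and ST2- Tregs became 415 with DESeq2, 50 with only the groups compared and 33 with glmTreat. Without 1 library at a time, the DEGs numbered 3139 to 3500, those higher 1518 to 1775, those lower 1572 to 1725 and the genes whose change differed 113 to 182. With the mouse as a replicate block, a pairing by animal, the counts were 3675 DEGs and 170 genes whose change differed, and among named genes the block changed the calls of Itgae, Gbp3, Il18rap and Ikzf2 only. With all 70 libraries the median of all genes moved by 0.201 (log2), and Il1rap (-0.66) and Hspd1 (0.14), neither of them called, changed sign. The cause of these moves was not tested. Over the named genes and all alternatives, 3447 log2 fold changes kept their direction and side of the threshold, 85 lost the call and 25 gained it. For the difference between ST2+ and ST2- Tregs, 554 kept it and 46 lost the call, of which 14 were lost with glmTreat, 10 with voom quality weights, 10 with only the groups compared and 5 with all 70 libraries. From 55 to 220 sorted cells per library limit what can be seen of genes of few counts.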
